A study of Saccharomyces cerevisiae with 4 samples.

Results

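The ribosome biogenesis factors of budding yeast were taken as 50 named genes, and a gene entered through the probe that carries its symbol in the platform annotation. A named probe was found for 49 of the 50, with 1 probe each and a value on every array, out of 6195 features (genes or unnamed probes) in all. NOP10 was not analysed here. The design asked how deletions within Snf2, the ATPase of the nucleosome remodeler SWI/SNF, alter expression. Poly(A) RNA of Saccharomyces cerevisiae was compared on 2-colour DNA microarrays in 4 samples, 1 per group. The snf2 null (Δsnf2 in BY4741) was hybridised against wild-type BY4741, and BY4741 was hybridised against itself. A mutant lacking the SnAC domain of Snf2 (the SnAC mutant, strain PSY3) was hybridised against the wild type Snf2-2FLAG (strain PSY2), whose Snf2 is tagged, and Snf2-2FLAG was hybridised against itself. Cultures were grown at 25 C in YPD, which is rich in glucose, and harvested at an optical density of 0.8.

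With 1 sample per group no test was possible and no value has a replicate error, so counts and medians of the genes are set beside the same over all features. The deposited values were read as log2 ratios of the named strain over its wild type. Base 2 is an assumption, and folds hold only if it is right. Each array had its own median subtracted, because the deposited medians differed: 0.003 for the snf2 null, -0.12 for BY4741, -0.39 for the SnAC mutant and 0.10 for Snf2-2FLAG. Values below are therefore log2 ratios relative to the array median unless said to be as deposited, and they are differences, not levels. Of 6226 probes, between 5695 and 6061 had a value per array. Separate probes of the same gene, available for 22 to 29 genes per array and for none of the members, differed by a median of 0.085 in the null, 0.107 in BY4741, 0.135 in the SnAC mutant and 0.126 in Snf2-2FLAG, which bears on single values only. SNF2 itself read -2.14 in the null against -0.19 on the BY4741 array, while the arrays of the Snf2-2FLAG background gave it no value. The samples are bulk cultures, so fewer cells with a transcript and less of it per cell cannot be told apart.

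Ribosome biogenesis starts in the nucleolus, where RNA polymerase I makes a long precursor of the ribosomal RNAs. The small-subunit processome, a large particle built around the U3 snoRNP, assembles on the front of this precursor and prepares it for cleavage. Box C/D and box H/ACA snoRNPs methylate and pseudouridylate the RNA. The rest of the precursor is folded and trimmed with the large-subunit factors, many of them helicases, GTPases and scaffold proteins, before both subunits are exported. In budding yeast these genes are known to be expressed together in growing cells and to be turned down in stress. The regulators known to act on them include the repressors Dot6, Tod6 and Stb3 and the activator Sfp1.

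Ribosome biogenesis genes lay below the array median in both mutants and above it on both wild-type arrays. Their median was -0.30 in the snf2 null, a 1.23-fold lower ratio, against 0.26 on the BY4741 array. It was -0.21 in the SnAC mutant, a 1.16-fold lower ratio, against 0.57 on the Snf2-2FLAG array, which is 1.49-fold above the median. The middle 50% of the members ran from -0.37 to -0.23 in the null and from 0.18 to 0.31 in BY4741. It ran from -0.29 to -0.10 in the SnAC mutant and from 0.38 to 0.67 in Snf2-2FLAG. Its width was 0.143 in the null, 0.13 in BY4741 and 0.195 in the SnAC mutant, beside 0.3445, 0.191 and 0.277 for all features. In Snf2-2FLAG it was 0.29 beside 0.297, so there the members were about as spread as all features. The SD across the 49 genes was 0.13 in each mutant, against 0.10 in BY4741 and 0.21 in Snf2-2FLAG. Both wild-type arrays carried the same strain in their 2 channels, per the labels. Relative to all features, the members were displaced further on these 2 arrays than on the mutant arrays. Above the member median were 4.17% of features in BY4741 and 1.73% in Snf2-2FLAG. Below it were 13.5% of features in the null and 14.6% in the SnAC mutant. The cause of the displacement on the same-strain arrays was not tested. The sources used here do not say whether the RNA of the 2 channels came from separate cultures.

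Counts show the same. In the null, 48 of 49 members were below the array median, as were 49.9% of all features. In the SnAC mutant 44 were below it, beside 49.9% of all features. On the BY4741 array 48 were above the median and on the Snf2-2FLAG array likewise 48, each beside 49.8% of all features. The exceptions were the helicase gene SPB4 in the null, the U3 protein gene RRP9 on the BY4741 array, and NHP2 on the Snf2-2FLAG array. Below the median on both mutant arrays and above it on both wild-type arrays were 41 of the 49 members, a pattern held by 16.1% of the features measured on all 4 arrays.

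The displacement was small for single genes. At least 0.322 below the median on the log2 scale, a ratio of 5 to 4, were 19 members in the null, where 12.2% of all features were, and 8 in the SnAC mutant, where 6.69% were. None was that far above it, beside 12.8% of features in the null and 9.66% in the SnAC mutant. At 1.5-fold no member was lower in the null or in the SnAC mutant, beside 3.27% and 2.56% of features. At least 0.322 above the median were 8 members on the BY4741 array and 41 on the Snf2-2FLAG array, beside 1.96% and 8.01% of features, with no member that far below it, beside 2.38% and 7.5%. On the Snf2-2FLAG array 22 members were also at least 1.5-fold higher, beside 1.59% of features. These counts depend on the centring: as deposited, 48 members were at least 0.322 below 0 in the SnAC mutant, beside 62.9% of all features, and 0 were that far above it in BY4741, beside 0.448%. Simply below 0 as deposited were 49 members in the SnAC mutant, beside 93.2% of features, and 48 in the null, beside 49.3%. After centring no member reached 2-fold in either direction on any array, beside 2.85% of features in the null, 0.0861% in BY4741, 2.05% in the SnAC mutant and 0.3% in Snf2-2FLAG.

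**Figure D1:**
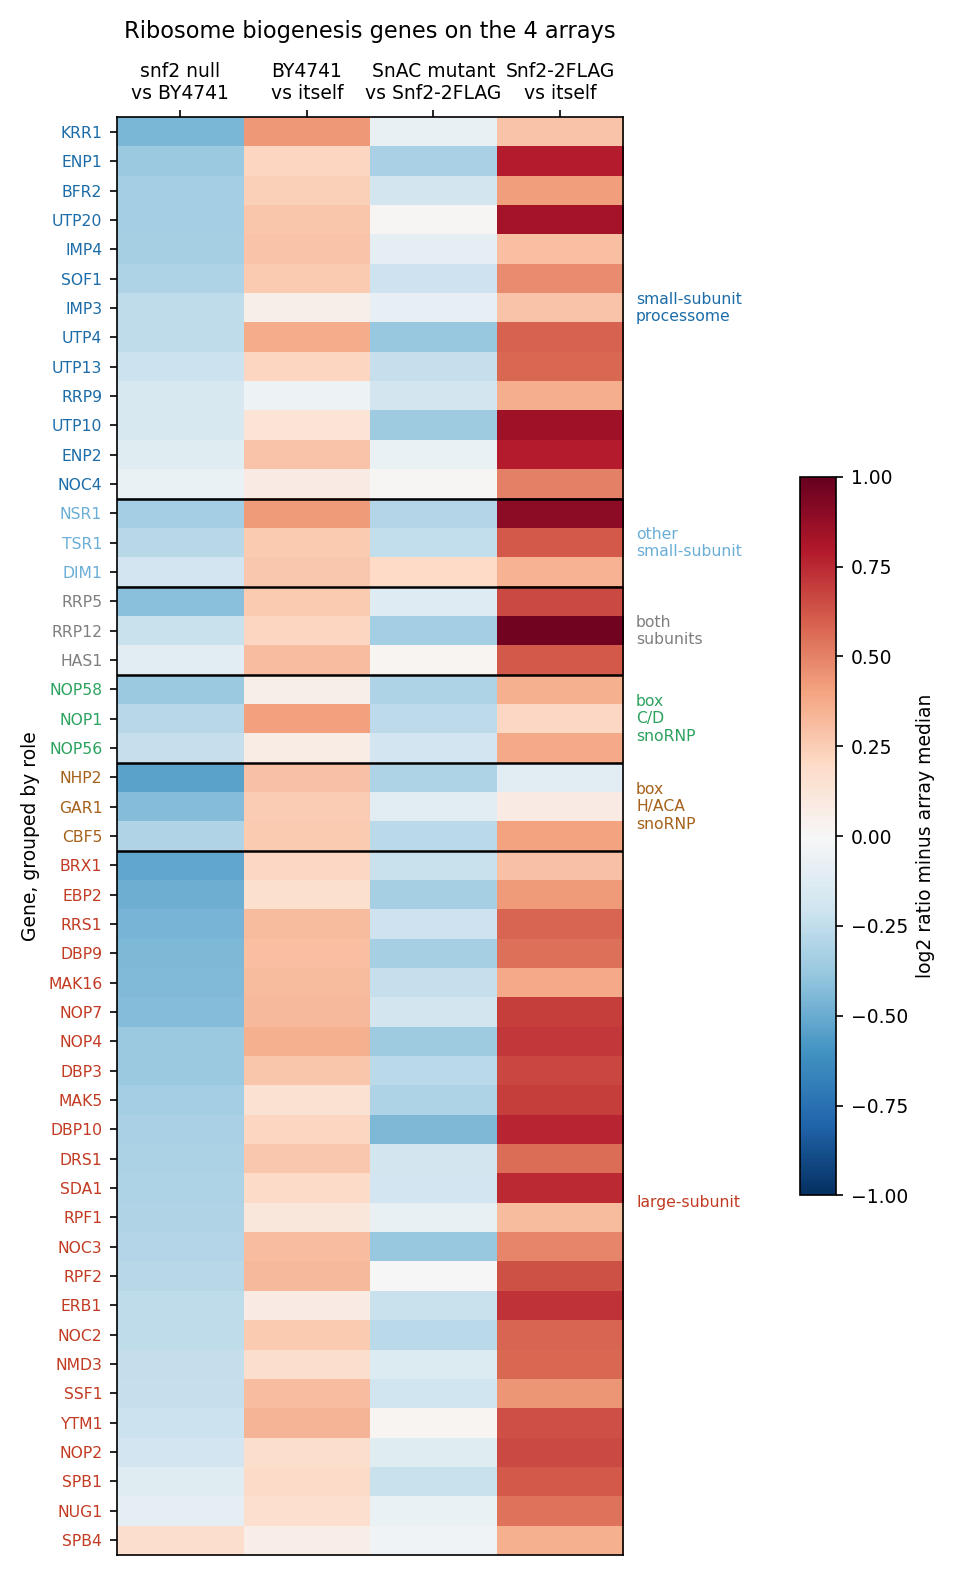
Log2 ratio minus array median for the 49 measured genes (rows, grouped by role and ordered within a role by the snf2 null) on the 4 arrays (columns, 1 sample each); blue is below the array median and red above. Both mutant columns are mostly pale blue, the BY4741 column is pale red and the Snf2-2FLAG column is the deepest red, up to 0.97 for RRP12.

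The medians of the 13 processome genes and the 24 large-subunit genes differed by at most 0.08 on any array. In the null the processome median was -0.26 and the large-subunit median -0.31, a difference of 0.05. On the BY4741 array they were 0.24 and 0.24, a difference of 0.001. In the SnAC mutant they were -0.18 and -0.21, a difference of 0.03, and on the Snf2-2FLAG array 0.50 and 0.58, a difference of -0.08. The middle 50% of the processome genes and of the large-subunit genes overlapped on all 4 arrays. The lists of other factors for each subunit had medians of -0.28 for 50 small-subunit and -0.30 for 50 large-subunit genes in the null, and of -0.24 and -0.21 for 49 of each in the SnAC mutant.

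**Figure D2:**
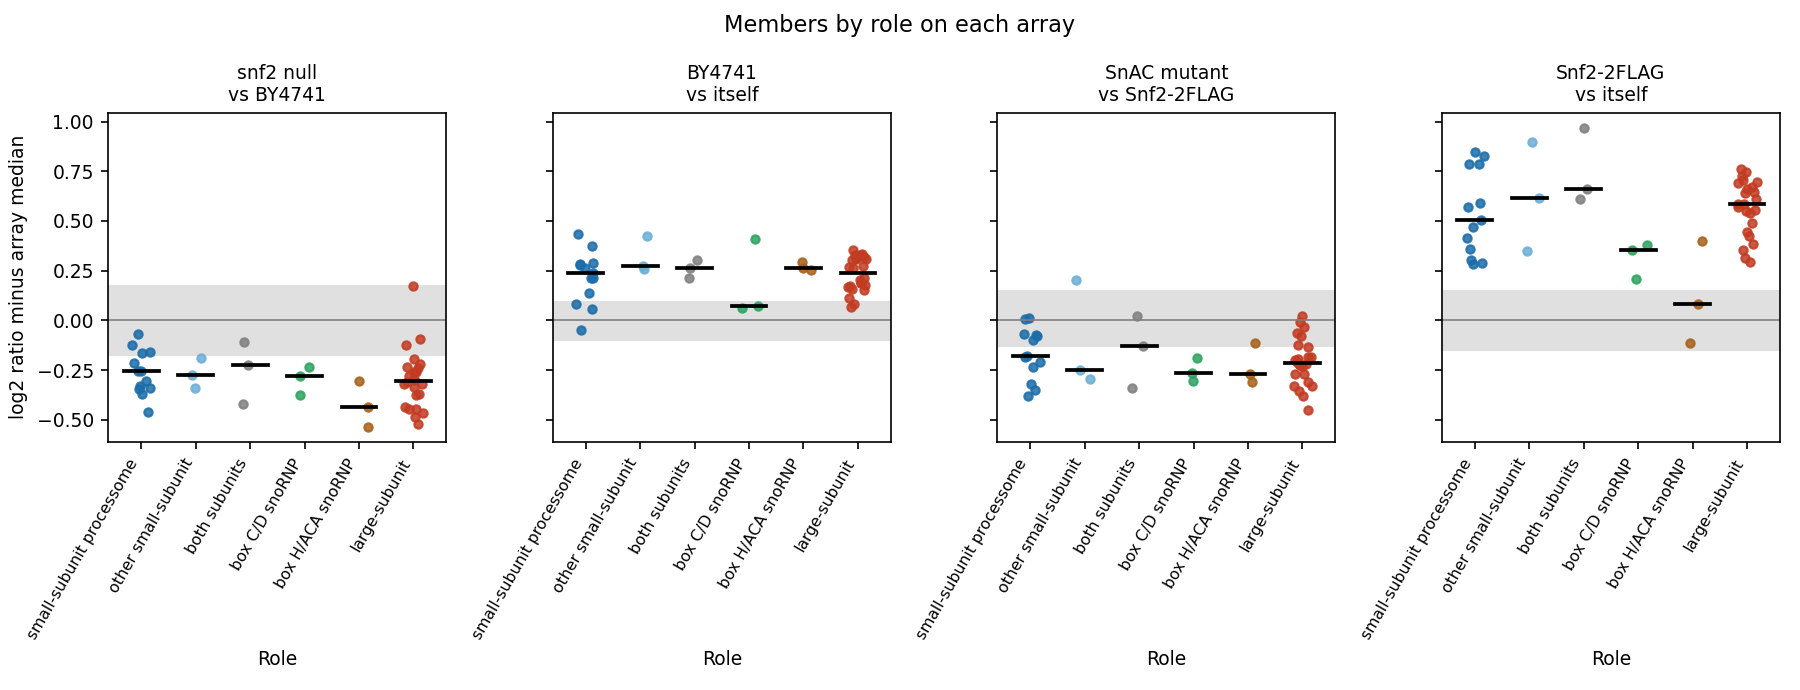
Each point is 1 gene, plotted by role (x axis) against its log2 ratio minus array median (y axis), with 1 panel per array; black bars are role medians and the grey band holds the middle 50% of all features. Processome and large-subunit genes overlap in every panel. The 3 box H/ACA genes have the lowest role median in the null, in the SnAC mutant and on the Snf2-2FLAG array. In the SnAC mutant it is -0.269, close to -0.262 for box C/D.

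Within the processome, KRR1, which encodes an RNA-binding KH-domain protein, stood at the ends of its group in the BY4741 background. It read -0.46 in the null and 0.43 on the BY4741 array, the lowest processome value on the one and the highest member on the other. In the SnAC mutant it read -0.07, against 0.29 on the Snf2-2FLAG array. KRR1 was thus low in the null and near the array median in the SnAC mutant.

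UTP10 and UTP4 encode subunits of UtpA, the complex that binds the front of the precursor as it is made, and they read lower in the SnAC mutant than in the null. UTP10 read -0.16 in the null and 0.14 in BY4741, and -0.35 in the SnAC mutant and 0.85 in Snf2-2FLAG. UTP4 read -0.26 in the null and 0.37 in BY4741, and -0.38 in the SnAC mutant and 0.59 in Snf2-2FLAG. UTP13, of the neighbouring UtpB complex, was about equally low, at -0.21 in the null and -0.23 in the SnAC mutant.

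UTP20 encodes a very large scaffold of HEAT repeats and was placed differently in the mutants. It read -0.34 in the null and 0.28 in BY4741, and 0.01 in the SnAC mutant and 0.83 in Snf2-2FLAG. NOC4, whose product pairs with Nop14, stayed near the median in both mutants. It read -0.07 in the null and 0.09 in BY4741, and 0.01 in the SnAC mutant and 0.50 in Snf2-2FLAG. ENP2, a WD40 protein gene, was also near the median in the mutants, at -0.12 in the null and -0.07 in the SnAC mutant, although it read 0.29 in BY4741 and 0.79 in Snf2-2FLAG.

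The other processome genes were IMP3 and IMP4, whose products help U3 pair with the precursor, and BFR2, ENP1, SOF1 and RRP9. Their values ran from -0.37 for ENP1 to -0.16 for RRP9 in the null and from -0.32 for ENP1 to -0.08 for IMP3 in the SnAC mutant. RRP9 encodes a protein specific to U3, and its null value of -0.16 lay close to its BY4741 value of -0.05.

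Among the small-subunit factors outside the processome, DIM1, the dimethylase of the small-subunit RNA, had the highest value of all members in the SnAC mutant. It read -0.19 in the null and 0.27 in BY4741, and 0.20 in the SnAC mutant and 0.35 in Snf2-2FLAG, although as deposited its SnAC mutant value was -0.19. TSR1, needed for cytoplasmic maturation of the small subunit, was low in both mutants, at -0.28 in the null and -0.25 in the SnAC mutant. NSR1, the yeast relative of nucleolin, read -0.34 in the null and 0.42 in BY4741, and -0.29 in the SnAC mutant and 0.90 in Snf2-2FLAG. It was among the 3 highest members on each wild-type array.

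RRP5, RRP12 and HAS1 serve both subunits. RRP5, an RNA-binding protein gene, read -0.42 in the null and 0.26 in BY4741, and -0.13 in the SnAC mutant and 0.66 in Snf2-2FLAG. RRP12, whose product takes part in subunit export, read -0.23 in the null and 0.21 in BY4741, and -0.34 in the SnAC mutant and 0.97 in Snf2-2FLAG, the highest member there. HAS1, a DEAD-box helicase gene, lay near the median in both mutants, at -0.11 in the null and 0.02 in the SnAC mutant, against 0.30 in BY4741 and 0.61 in Snf2-2FLAG.

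The box C/D snoRNP genes lay close together in the mutants. NOP1, the fibrillarin methyltransferase, read -0.28 in the null and 0.41 in BY4741, and -0.26 in the SnAC mutant and 0.21 in Snf2-2FLAG. The core protein genes were alike. NOP56 read -0.23 in the null and 0.07 in BY4741, and -0.19 in the SnAC mutant and 0.38 in Snf2-2FLAG. NOP58 read -0.37 in the null and 0.06 in BY4741, and -0.30 in the SnAC mutant and 0.35 in Snf2-2FLAG. NOP1 was thus high on the BY4741 array, where NOP56 and NOP58 were near its median.

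The box H/ACA snoRNP genes included the lowest member of the null. NHP2, a core RNA-binding subunit, read -0.53 in the null and 0.29 in BY4741, and -0.31 in the SnAC mutant and -0.11 in Snf2-2FLAG. GAR1, a subunit that aids substrate turnover, read -0.43 in the null and 0.25 in BY4741, and -0.11 in the SnAC mutant and 0.08 in Snf2-2FLAG. CBF5, the pseudouridine synthase itself, read -0.30 in the null and 0.26 in BY4741, and -0.27 in the SnAC mutant and 0.40 in Snf2-2FLAG. NHP2 and GAR1 were the 2 lowest members on the Snf2-2FLAG array, so their SnAC mutant values lay only 0.198 and 0.196 below it.

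Proteins of the Brix family, which bind ribosomal RNA, are encoded by IMP4 for the small subunit and by BRX1, RPF1, RPF2 and SSF1 for the large one. BRX1 read -0.52 in the null and 0.20 in BY4741, and -0.23 in the SnAC mutant and 0.29 in Snf2-2FLAG. RPF2, which brings in the 5S particle with Rrs1, read -0.28 in the null and 0.33 in BY4741, and -0.007 in the SnAC mutant and 0.64 in Snf2-2FLAG. SSF1 read -0.23 in the null and 0.31 in BY4741, and -0.20 in the SnAC mutant and 0.44 in Snf2-2FLAG. RPF1 read -0.30 in the null and 0.11 in BY4741, and -0.08 in the SnAC mutant and 0.31 in Snf2-2FLAG. IMP4 read -0.33 in the null and 0.28 in BY4741, and -0.10 in the SnAC mutant and 0.30 in Snf2-2FLAG. All 5 were below the median in both mutants, and the family median was -0.30 in the null and -0.10 in the SnAC mutant.

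The partners of these proteins were also low in the null. RRS1, the partner of Rpf2, read -0.47 in the null and 0.32 in BY4741, and -0.21 in the SnAC mutant and 0.58 in Snf2-2FLAG. EBP2, whose product binds Brx1, read -0.49 in the null and 0.16 in BY4741, and -0.33 in the SnAC mutant and 0.42 in Snf2-2FLAG. EBP2, NOP4 and DBP9 were the members at least 0.322 below the median in both mutants, which makes 3 of 49 beside 4.87% of all features, a share near that background. NOP4, an RNA-binding protein gene, read -0.37 in the null and 0.36 in BY4741, and -0.36 in the SnAC mutant and 0.71 in Snf2-2FLAG. DBP9 read -0.45 in the null and 0.30 in BY4741, and -0.33 in the SnAC mutant and 0.55 in Snf2-2FLAG.

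DBP9 is 1 of 7 DEAD-box helicase genes among the members, which encode enzymes that open RNA helices. Values of the family ran from -0.45 for DBP9 to 0.17 for SPB4 in the null. In the SnAC mutant they ran from -0.45 for DBP10 to 0.02 for HAS1. The family median was -0.32 in the null and -0.27 in the SnAC mutant. DBP10 had the lowest value of all members in the SnAC mutant. It read -0.32 in the null and 0.21 in BY4741, and -0.45 in the SnAC mutant and 0.76 in Snf2-2FLAG. SPB4 was the only member above the median in the null. It read 0.17 there and 0.07 in BY4741, and -0.04 in the SnAC mutant and 0.35 in Snf2-2FLAG. DBP3, DRS1 and MAK5 lay between -0.37 and -0.32 in the null and between -0.31 and -0.18 in the SnAC mutant.

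NOP7, ERB1 and YTM1 encode the 3 subunits of 1 complex of the early large subunit, and their values differed in the mutants. NOP7 read -0.44 in the null and -0.18 in the SnAC mutant. ERB1 read -0.26 in the null and -0.22 in the SnAC mutant. YTM1 read -0.22 in the null and 0.34 in BY4741, and 0.02 in the SnAC mutant and 0.65 in Snf2-2FLAG. YTM1 was thus the only large-subunit gene above the median in the SnAC mutant, by 0.02. Separate probes of 1 gene differed by more there, at a median of 0.135.

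NOC2 and NOC3 encode partners in pre-large-subunit transport and were similar in the null, at -0.26 and -0.29. NOC2 read -0.27 and NOC3 read -0.38 in the SnAC mutant, against 0.58 and 0.49 in Snf2-2FLAG. NUG1, a nuclear GTPase gene, was near the median in both mutants. It read -0.10 in the null and 0.17 in BY4741, and -0.07 in the SnAC mutant and 0.54 in Snf2-2FLAG.

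NOP2 and SPB1 encode methyltransferases of the large-subunit RNA and were among the less displaced members of the null, at -0.19 and -0.12. NOP2 read -0.12 and SPB1 read -0.22 in the SnAC mutant. MAK16, a large-subunit assembly factor gene, read -0.44 in the null and -0.23 in the SnAC mutant. NMD3, the export adaptor, read -0.24 and -0.14 in the same order. SDA1, also needed for export, read -0.31 and -0.20.

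Nearly every member read lower on a mutant array than on the array of its own wild type against itself. That wild-type array holds 1 strain in both channels, so the difference between the arrays is not a measure of mutant against wild type. The null value lay below the BY4741 value for 48 of 49 members, as for 49.5% of all features, with SPB4 as the exception, and the median difference was -0.55. It was at least 0.322 lower for 41 members, beside 19.2% of features. Of the null values, 48 lay below the lowest member on the BY4741 array, RRP9 at -0.05, so the 2 arrays overlapped only through SPB4. This was not particular to the members. Of 128 ribosomal protein genes, 125 read lower in the null than the lowest of them on the BY4741 array. The SnAC mutant value lay below the Snf2-2FLAG value for 49 of 49 members, as for 49.7% of all features, with a median difference of -0.74. It was at least 0.322 lower for 46 members, beside 17.4% of features. Those 2 arrays overlapped more, since NHP2 read -0.11 on the Snf2-2FLAG array, and 35 of the SnAC mutant values lay below it. The same count for ribosomal protein genes was 0 of 127. Each of these limits is set by 1 gene, and the share of all features below them was not computed. The greatest differences were those of KRR1 in the BY4741 background, at -0.89, and of RRP12 in the Snf2-2FLAG background, at -1.31. Each mutant array carries the same wild-type strain in its other channel as the array it is set beside, so these differences do not stand for separate measurements of the wild type. In the Snf2-2FLAG background the members stood further from the array median on the wild-type array, at 0.57, than on the mutant array, at -0.21. The displacement on this same-strain array was also larger than that of -0.30 in the null, and its cause was not tested.

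**Figure D3:**
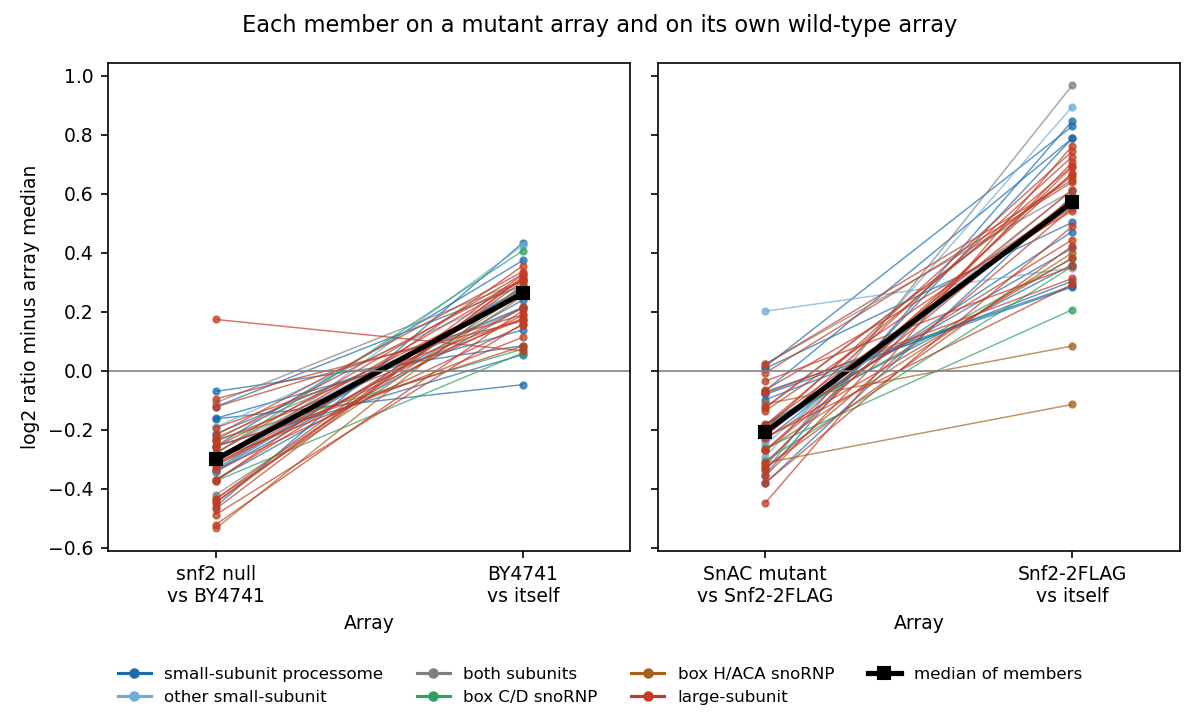
Each line joins the log2 ratio minus array median (y axis) of 1 gene on a mutant array (left of each panel) and on the array of its own wild type against itself (right), coloured by role; black squares are medians of the 49 genes. The lines run upward to the right for 48 genes in the BY4741 background and for all 49 in the Snf2-2FLAG background.

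The order of the members differed between the mutants. Across the 49 members, null and SnAC mutant values correlated with Pearson's r = 0.38 and Spearman's rho = 0.36, while 5790 features gave 0.88 and 0.77. The range of the members is narrow on both arrays, genes are not independent replicates, and the coefficients only describe these 2 arrays. Without SPB4 the coefficients of the members were 0.35 and 0.33. Both values were below the median for 43 of 49 members, as for 39.1% of all features. The SnAC mutant value lay above the null value for 39 members, as for 52.7% of features, with a median difference of 0.08. This order depends on the centring. As deposited, the median of the members was lower in the SnAC mutant, at -0.60, than in the null, at -0.30. The 2 mutant arrays also have different wild types in their other channel. The greatest differences, SnAC mutant minus null, were 0.39 for DIM1, 0.39 for KRR1 and 0.35 for UTP20 on the one side and -0.21 for SPB4, -0.19 for UTP10 and -0.13 for DBP10 on the other.

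**Figure D4:**
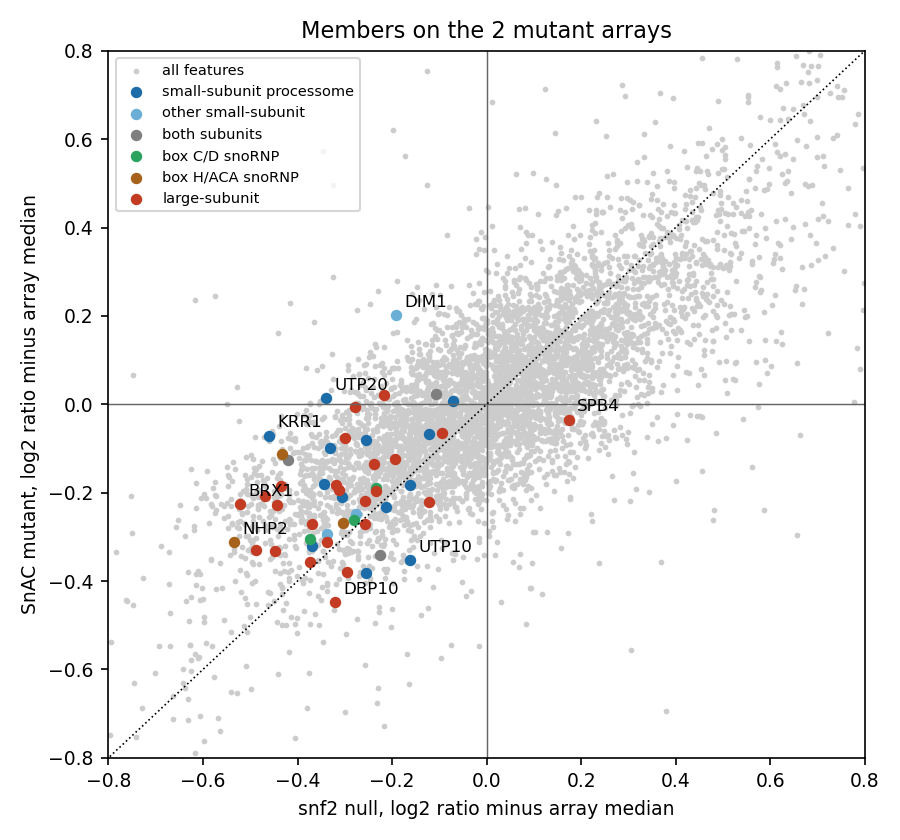
Log2 ratio minus array median in the SnAC mutant (y axis) against the snf2 null (x axis) for the 49 genes, coloured by role, over all features in grey; axes are limited to the range around the members, so stronger features lie outside. Most members sit in the lower left, above the dotted line of equal values, with SPB4 to the right and DIM1 at the top.

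Ribosomal protein genes, the other large group needed for ribosomes, followed the members on some arrays and not on others. Their median was -0.44 in the null over 132 genes and 0.12 in BY4741 over 129, so they lay below the members on both arrays, by 0.14 and 0.15. In the SnAC mutant their median was -0.20, beside -0.21 for the members. On the Snf2-2FLAG array it was -0.09, against 0.57 for the members, and the middle 50% did not overlap. The difference from the own wild-type array was therefore -0.54 for ribosomal protein genes and -0.55 for the members in the null, but -0.10 and -0.74 in the SnAC mutant. Among ribosomal protein genes RPS22A was lowest in the null at -0.75 and RPS23A highest at 0.18, and RPS29A was lowest in the SnAC mutant at -0.42 and RPS23B highest at 0.25. Each of these 4 has a closely similar paralog, so their probes may report on both copies.

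RNA polymerase I and III subunits, which make the ribosomal and transfer RNAs, had a median of -0.28 in the null over 19 genes, against 0.21 in BY4741. In the null 18 were below the array median, beside 49.9% of all features. In the SnAC mutant their median was -0.09 with 14 below the array median, beside 49.9% of all features, against 0.26 in Snf2-2FLAG. RPC34 was lowest in the null at -0.51 and RPO31 highest at 0.07, and RPC53 was lowest in the SnAC mutant at -0.28 and RPC37 highest at 0.09.

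Further factors outside the members behaved like them, in lists chosen with earlier results of these data known. Of 50 other small-subunit genes, 50 were below the median in the null, and of 49 measured in the SnAC mutant 47 were. Of 50 other large-subunit genes 48 were below it in the null, and of 49 in the SnAC mutant 45 were. All these counts stand beside 49.9% of all features below the median in each mutant. Among small-subunit genes TSR2 was lowest in the null at -0.58 and RRP3 highest at -0.05, and ESF1 was lowest in the SnAC mutant at -0.56 and NOP6 highest at 0.06. Among large-subunit genes NOP13 was lowest in the null at -0.65 and MAK21 highest at 0.20, and NOG2 was lowest in the SnAC mutant at -0.54. DBP2, a helicase gene, was highest in the SnAC mutant at 0.11 and was also far above the median on the wild-type arrays, at 0.58 in BY4741 and 1.12 in Snf2-2FLAG.

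**Figure D5:**
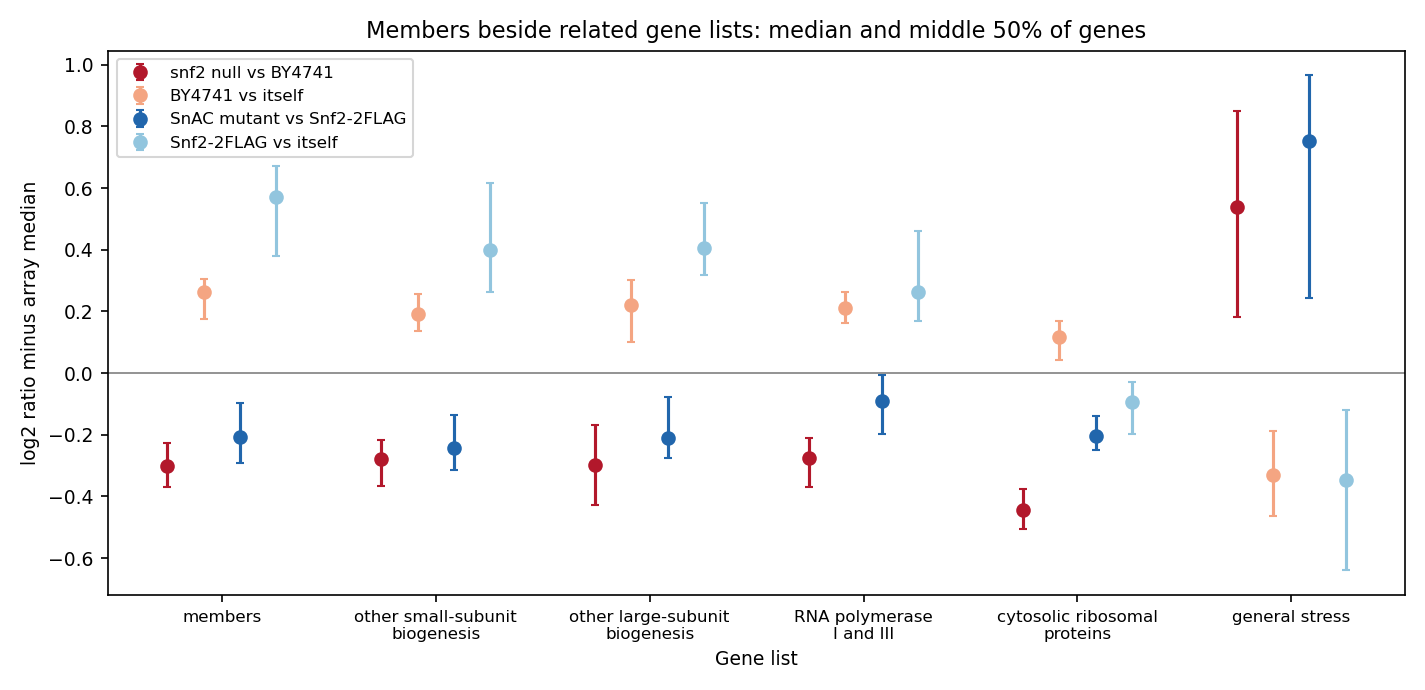
Points are medians and bars the middle 50% of genes of each list (x axis) as log2 ratio minus array median (y axis), with 1 colour per array. Members and other biogenesis genes share 1 pattern, ribosomal protein genes lack the high Snf2-2FLAG value, and medians of general stress genes have signs opposite to those of the members.

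General stress genes had medians on the other side from the members on all 4 arrays, though not every gene did so. Their median was 0.54 in the null, against -0.33 in BY4741. In the null 14 of 23 were at least 0.322 above the array median, beside 12.8% of all features. The median of the stress genes was 0.75 in the SnAC mutant, against -0.35 in Snf2-2FLAG. In the SnAC mutant 16 of 23 were that far above the array median, beside 9.66% of all features. On the Snf2-2FLAG array 18 of 22 were below the array median and 4 above it, beside 49.9% of all features below. HSP12, a membrane stress protein gene, was highest in both mutants at 3.54 in the null and 2.86 in the SnAC mutant. It read -0.41 in BY4741 but 0.78 in Snf2-2FLAG, the same side as the members. DDR2 was lowest in the null at -0.13 and GRE3 lowest in the SnAC mutant at -0.02. The list of stress genes too was chosen with earlier results of these data known. The part of growth state or stress at harvest in the values of the members was not tested.

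Transcripts of the known regulators did not share 1 direction. DOT6, a repressor that binds the PAC motif of these genes, was high in both mutants, at 0.84 in the null and -0.29 in BY4741, and at 0.64 in the SnAC mutant and 0.16 in Snf2-2FLAG. Its paralog TOD6, a repressor of the same motif, patterned like the members instead. It read -0.32 in the null and 0.21 in BY4741, and -0.41 in the SnAC mutant and 0.74 in Snf2-2FLAG. STB3, a repressor acting through the RRPE motif, read 0.43 in the null and -0.24 in BY4741, and 0.28 in the SnAC mutant and -0.12 in Snf2-2FLAG.

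SFP1, an activator of these genes, was less displaced. It read -0.18 in the null and -0.07 in BY4741, and -0.03 in the SnAC mutant and 0.19 in Snf2-2FLAG. SCH9, the kinase gene upstream of the repressors, read 0.07 in both mutants. Among the regulators of ribosomal protein genes, IFH1 read 0.06 in the null and -0.36 in the SnAC mutant, FHL1 read 0.12 and -0.06 in the same order, and CRF1 read 0.08 and 0.04. HMO1, a high mobility group protein gene, read -0.28 in the null and -0.06 in the SnAC mutant. The general factors ABF1 and RAP1 read 0.15 and 0.17 in the null, and 0.17 and 0.20 in the SnAC mutant. PBF1 is an older name of TOD6 and adds no gene.

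Some members sit beside another ribosome biogenesis gene in the gene order of the R64 reference, and the share over all genes was not computed. RPF1 and GAR1 are the only member pair, with converging reading frames, and both read low in the null at -0.30 and -0.43. A further 5 members lie beside a gene of the lists of other factors. The absolute difference between neighbours in these 5 pairs ran from 0.06 to 0.34 in the null and from 0.07 to 0.31 in BY4741, and from 0.10 to 0.30 in the SnAC mutant and from 0.007 to 0.58 in Snf2-2FLAG. The same differences for other adjacent genes were not computed.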

How the data were processed

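Polyadenylated RNA was hybridised in 2 channels, and each sample's label names 2 scans of opposite dye orientation. The deposited table holds 1 ratio per probe and sample, read here as log2. The sources used here do not say how the authors combined scans, corrected background, chose the log base or used the spike-in transcripts. Per the labels, channel 1 held the strain after which the sample is named, and positive values are higher there. Precision is limited by the number of arrays, 1 per group.

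The platform annotation named 1 gene for 5578 of 6226 probes, of which 5573 matched the R64 gene table, and none for 648. Probes of 1 gene were averaged and each array's median was subtracted. Gene lists describe counts and medians. The members and lists were chosen with earlier results of these data known. Roles and protein families were assigned by hand. Values are given for the ends of each mutant array, the largest differences between mutants, the snoRNP and Brix genes, the highest members on the wild-type arrays, all regulators and the ends of each list. Promoter motifs and protein sequences were not analysed here. The code was checked on simulated arrays with a larger planted difference between processome and large-subunit genes. That check does not bear on differences as small as those found here. Python 3.11.15, numpy 2.4.6, pandas 2.3.3 and matplotlib 3.10.9 were used. Alternatives were other centrings, no centring, subtraction of the wild-type array, features measured on all arrays, single probes, annotation symbols only, other group boundaries, means and other folds.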

Additional observations from a re-analysis of the deposited data

Results flagged for a closer look

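Some genes lay on opposite sides of the array median in the mutants, and the difference was not tested. SPB4 read 0.17 in the snf2 null and -0.035 in the SnAC mutant. DIM1 read -0.19 in the null and 0.20 in the SnAC mutant. UTP20 read -0.34 in the null and 0.014 in the SnAC mutant, and YTM1 read -0.22 in the null and 0.022 in the SnAC mutant. HAS1 read -0.11 in the null and 0.023 in the SnAC mutant, and NOC4 read -0.07 in the null and 0.008 in the SnAC mutant. Among the regulators, FHL1 read 0.12 in the null and -0.058 in the SnAC mutant, and IFH1 read 0.056 in the null and -0.36 in the SnAC mutant. Separate probes of 1 gene differed by a median of 0.135 in the SnAC mutant. The SnAC mutant values of SPB4, UTP20, YTM1, HAS1, NOC4 and FHL1 were nearer the array median than that, so their side is uncertain. The null values of NOC4 and IFH1 were likewise nearer it than 0.085, the same measure in the null. As deposited, without centring, all 49 members were below 0 in the SnAC mutant, beside 93.2% of all features, and 48 in the null, beside 49.3%, so SPB4 alone among the members kept opposite signs.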

How the results depend on the processing

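The median of the members kept its sign on all 4 arrays under each alternative run, as did the difference from the own wild-type array. Each member has 1 probe and a value on every array. Single probes, annotation symbols and features measured on all arrays could therefore change these results only through the array median. As deposited, the median of the members was -0.60 in the SnAC mutant and 0.14 in BY4741, 48 members were at least 0.322 below 0 in the SnAC mutant (62.9% of all features) and 0 that far above it in BY4741 (0.448%), and the median differences from the own wild-type array were -0.43 in the null and -1.24 in the SnAC mutant. After subtraction of the own wild-type array the median was -0.55 in the null and -0.74 in the SnAC mutant, with 41 and 46 members at least 0.322 lower, beside 19.2% and 17.4% of all features. At 1.5-fold the counts were 0 in the null, 0 in BY4741, 0 in the SnAC mutant and 22 in Snf2-2FLAG, and at 2-fold they were 0 on all 4 arrays. These shifts follow from the displaced array medians, the high wild-type values and the stricter folds. The processome minus large-subunit difference changed its sign to -0.0215 in the null with the wild-type array subtracted, to -0.0165 in BY4741 and -0.018 in the SnAC mutant with the other biogenesis genes added, and to -0.0162 in BY4741 with means. It ran up to 0.05 in the null, 0.02 in BY4741 and 0.11 in the SnAC mutant, and from -0.11 to -0.03 in Snf2-2FLAG, where it kept its sign, and the cause of the sign changes was not tested. Other centrings shift the processome and large-subunit medians alike, so they could not change the difference between them. The promoter motif alternatives were not run. No paired analysis was possible because each group held 1 sample.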
